A study of Mus musculus with 2 samples.

Results

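The voltage-gated calcium channel alpha-1 genes encode the pore-forming subunits of the channels that let calcium into excitable cells when the membrane depolarises. The 9 genes described here, Cacna1a, Cacna1b, Cacna1c, Cacna1d, Cacna1e, Cacna1g, Cacna1h, Cacna1i and Cacna1s, were taken by symbol from the GENCODE M21 annotation of the mouse mm10 genome, among 21938 protein-coding genes. Chromatin accessibility was measured over each gene and 10 kb on each side, called its window, by DNase-seq. In this assay nuclei are treated with DNase I, and sequencing of the released ends shows where chromatin was open to the enzyme. Cortex of the left hemisphere (left cerebral cortex in the labels) came from male mice of strain B6CASTF1/J aged 8 to 10 months, first-generation hybrids of a C57BL/6 and a castaneus strain. There were 2 libraries, labelled biological replicates 1 and 2, in 1 group with no contrast. They carry different biosample identifiers but 1 donor identifier, so whether they came from separate animals is not known, and the SDs below may be technical.

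Each alpha-1 protein forms the whole pore and carries its own voltage sensors. In many of these channels, though not all, auxiliary beta, alpha2delta and gamma proteins adjust trafficking and gating. Cacna1a, Cacna1b and Cacna1e encode the P/Q-type, N-type and R-type channels, which open at strong depolarisation and trigger transmitter release at nerve terminals. Cacna1c, Cacna1d and Cacna1s encode L-type channels. Cacna1c and Cacna1d serve neurons, heart and endocrine cells and link calcium entry to gene transcription, and Cacna1s is the voltage sensor of skeletal muscle contraction. Cacna1g, Cacna1h and Cacna1i encode T-type channels, which open at small depolarisations and support burst firing.

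All 9 genes held at least 1 accessible site in both libraries within the gene or 10 kb on each side (7 of 9 within the gene alone), and most of their accessible sites lay in introns rather than at their starts. In 7 genes coding transcripts begin at more than 1 place, and in each of the 9 a single start region had a peak in both libraries, by the broader of the deposited peak lists. For Cacna1s that call rests on the edge of a peak closer to the start of its neighbour Ascl5. Those start regions gave weak peaks, with Cacna1b as the strongest. Among the stronger sites were introns of Cacna1a, Cacna1c, Cacna1d and Cacna1h, DNA upstream of the main start of Cacna1e, inside a longer transcript, and DNA beyond the end of Cacna1g. Many of these held letters close to the CTCF consensus inside a footprint, though not the strongest intron site of Cacna1a in either library. Of all stricter-list peaks away from starts and shared between libraries, 40.9% (replicate 1) and 38.6% (replicate 2) did so too. CTCF was added to the search after the data were seen. CTCF is a zinc-finger protein that anchors chromatin loops.

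The sequences that carry this pattern are given first. A footprint is a short interval that the authors called as protected from cutting within accessible DNA. Capitals mark bases inside a footprint of both libraries, each run reads 5′ to 3′ on the strand of its gene, and all are mm10 reference sequence, which can differ from either parental allele of the hybrid. The pair of promoter stretches, outside any UTR, belongs to the genes with the strongest peaks at a coding start: Cacna1b at chr2:24763153-24763380 on the minus strand and Cacna1g at chr11:94474333-94474519 on the minus strand.
Cacna1b promoter: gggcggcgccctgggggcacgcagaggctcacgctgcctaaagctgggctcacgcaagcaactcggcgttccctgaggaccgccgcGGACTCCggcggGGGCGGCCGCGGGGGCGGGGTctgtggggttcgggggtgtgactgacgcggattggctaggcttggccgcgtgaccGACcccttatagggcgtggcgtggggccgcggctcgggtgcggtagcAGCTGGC
Cacna1g promoter: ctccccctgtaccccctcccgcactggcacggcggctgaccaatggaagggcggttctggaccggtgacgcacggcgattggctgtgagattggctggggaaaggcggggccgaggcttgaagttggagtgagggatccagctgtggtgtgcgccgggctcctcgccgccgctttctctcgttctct
The Cacna1b stretch was 74.1% G and C. It held the GC box GGGCGG at bases 1 to 6, 99 to 104 and 111 to 116, counted from its 5′ end, and the last 2 copies lay wholly in capitals. The Cacna1g stretch had 66.3% G and C, a GC box at bases 49 to 54, and CCAAT on either strand at bases 40 to 44, 78 to 82 and 90 to 94. It had footprints in each library, 2 in replicate 1 and 3 in replicate 2, but no base of it lay in a footprint of both.

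The sites away from starts are shown by 9 stretches, 1 for each gene. They are Cacna1c intron 3 (chr6:118922994-118923131, minus strand), Cacna1d intron 9 (chr14:30137101-30137260, minus strand), an intron of a longer transcript of Cacna1e, upstream of its main start (chr1:154788201-154788360, minus strand), DNA beyond the 3′ end of Cacna1g (chr11:94404781-94405000, minus strand), Cacna1h intron 2 (chr17:25397941-25398120, minus strand), Cacna1i intron 1 (chr15:80289601-80289756, plus strand), DNA upstream of Cacna1s (chr1:136045911-136046037, plus strand), DNA at exon 19 of Cacna1b (chr2:24679021-24679147, minus strand) and Cacna1a intron 30 (chr8:84592101-84592300, plus strand).
Cacna1c intron 3: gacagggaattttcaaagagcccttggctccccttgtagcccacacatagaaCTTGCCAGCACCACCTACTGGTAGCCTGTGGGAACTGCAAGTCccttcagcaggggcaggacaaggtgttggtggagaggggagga
Cacna1d intron 9: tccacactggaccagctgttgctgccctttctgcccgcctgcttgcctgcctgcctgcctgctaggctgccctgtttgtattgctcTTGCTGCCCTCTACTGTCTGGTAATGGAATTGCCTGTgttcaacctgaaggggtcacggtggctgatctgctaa
Cacna1e upstream of the main start: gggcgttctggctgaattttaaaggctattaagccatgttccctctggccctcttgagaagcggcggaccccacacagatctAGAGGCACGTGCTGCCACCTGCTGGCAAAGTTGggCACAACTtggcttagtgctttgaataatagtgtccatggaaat
Cacna1g beyond the end: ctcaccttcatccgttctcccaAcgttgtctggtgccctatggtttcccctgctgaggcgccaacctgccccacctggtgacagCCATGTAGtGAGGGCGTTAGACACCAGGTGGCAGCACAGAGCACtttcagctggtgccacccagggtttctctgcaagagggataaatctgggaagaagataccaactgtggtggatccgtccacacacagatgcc
Cacna1h intron 2: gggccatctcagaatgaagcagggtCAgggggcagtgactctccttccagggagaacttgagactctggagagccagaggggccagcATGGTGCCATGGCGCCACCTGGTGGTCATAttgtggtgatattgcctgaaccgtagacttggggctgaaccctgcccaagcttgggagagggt
Cacna1i intron 1: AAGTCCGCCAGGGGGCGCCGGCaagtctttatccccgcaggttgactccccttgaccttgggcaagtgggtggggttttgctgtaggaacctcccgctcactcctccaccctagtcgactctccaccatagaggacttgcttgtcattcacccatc
Cacna1s upstream: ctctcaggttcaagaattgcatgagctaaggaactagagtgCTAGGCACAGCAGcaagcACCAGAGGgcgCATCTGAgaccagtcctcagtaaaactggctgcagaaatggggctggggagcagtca
Cacna1b at exon 19: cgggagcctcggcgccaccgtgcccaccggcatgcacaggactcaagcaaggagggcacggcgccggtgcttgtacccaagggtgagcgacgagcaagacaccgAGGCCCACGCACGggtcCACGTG
Cacna1a intron 30: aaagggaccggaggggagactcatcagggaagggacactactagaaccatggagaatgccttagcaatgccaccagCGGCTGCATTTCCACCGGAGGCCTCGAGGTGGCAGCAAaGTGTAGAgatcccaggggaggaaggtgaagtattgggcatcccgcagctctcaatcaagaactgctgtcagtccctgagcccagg
In the first 6 of these a match to the 12-letter CTCF consensus, with at most 1 letter different, lay wholly in capitals. In Cacna1s the match touched a footprint of each library, but some of its bases lay outside the capitals. The stretches of Cacna1b and Cacna1a held no such match. Each stretch is from its gene's strongest shared site away from starts, ranked by the lower of its strengths in the 2 libraries. Over all shared stricter peaks away from starts, of any strength, a looser measure was taken. A match was centred in a footprint of replicate 1 in 40.9% and of replicate 2 in 38.6%. The count among the printed stretches is not comparable with these shares.

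The authors deposited a stricter and a broader list of peaks for each library, called on that library alone. Replicates 1 and 2 had 40705 and 39508 stricter peaks, 71210 and 72217 broader peaks, and 166128 and 174394 footprints. The total number of reads behind these files is not given in the sources used here, so depth could not be set beside the counts. Each peak carries a deposited signal value, called its strength here, whose scaling is not stated, and its median was 1.22 and 1.15 over all stricter peaks. Promoter peaks marked 4 of 4 general neuron genes in both libraries, 3 of 4 excitatory neuron genes and 0 of 4 inhibitory neuron genes. The counts were 1 of 4 for astrocytes, 0 of 4 for oligodendrocytes, 0 of 4 for microglia, 0 of 3 for endothelium, 1 of 4 for skeletal muscle, 0 of 3 for heart and 2 of 4 for Purkinje cells. The classes at 0 were unlike each other. All microglia, endothelium and heart genes, and 3 of 4 for oligodendrocytes, lacked the peak in replicate 1 and in replicate 2. Of the inhibitory neuron genes only Gad1 did, and the others were marked in 1 library. The share marked in both libraries was 54.9% over all protein-coding genes. In whole tissue, fewer cells with an open site and less opening in each cell cannot be told apart.

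Over the 9 windows there were 57 stricter peaks in replicate 1 and 51 in replicate 2, or 54 ± 4.24 (SD, n = 2 libraries). The broader lists held 116 and 123 peaks there, or 119.5 ± 4.95. Footprints numbered 257 and 278, or 267.5 ± 14.8. Every one of the 9 genes had a stricter peak in its window in both libraries. Of all protein-coding genes 70.3% did, and of the 4274 that are at least as long as the shortest of the 9 (59.5 kb), 90.9% did, so the full count lies close to that of long genes.

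The count of stricter peaks was highest for Cacna1c, with 13 and 11 in replicates 1 and 2, and Cacna1d followed with 9 in each. Cacna1a had 8 and 9, Cacna1b 6 and 8, and Cacna1e 8 and 5. The T-type genes and Cacna1s, which are the shorter genes, had fewer: Cacna1i 3 and 5, Cacna1g 3 and 2, Cacna1s 4 and 1, and Cacna1h 3 and 1. Among the higher counts the range of Cacna1c overlapped no other gene's, whereas Cacna1d and Cacna1a, Cacna1a and Cacna1b, and Cacna1b and Cacna1e each overlapped. The ranges of the last 4 genes all included 3.

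**Figure D1:**
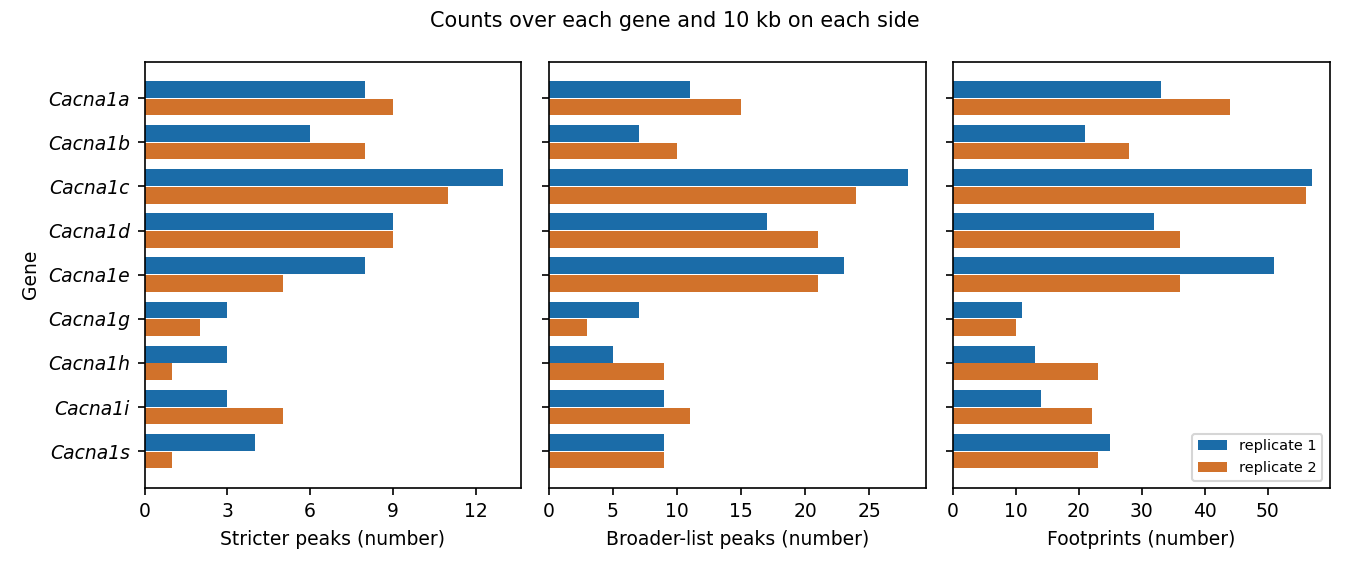
Horizontal bars give the number of stricter peaks, broader-list peaks and footprints (x axes) over each gene and 10 kb on each side (y axis), by library. Cacna1c was highest in all 3 panels, with 13 and 11 stricter peaks and 57 and 56 footprints, and Cacna1h, Cacna1g and Cacna1s had at most 4 stricter peaks.

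Cacna1c is also the longest of the 9 at 609 kb, and per unit of length the order was different. Density, the number of stricter peaks per 10 kb of window, was 0.390 ± 0.0789 for Cacna1b, the highest, and 0.313 ± 0.0260 for Cacna1a (SD, n = 2). It was 0.305 ± 0.108 for Cacna1i, 0.291 ± 0.0824 for Cacna1g, 0.287 ± 0.244 for Cacna1s and 0.252 ± 0.178 for Cacna1h. Neighbours in this stretch of the order differed by less than the larger of their SDs. Cacna1c, at 0.191 ± 0.0225, and Cacna1d, at 0.191 in each library, were lower, and Cacna1e was lowest at 0.127 ± 0.0413. The median over the 9 was 0.294 in replicate 1 and 0.191 in replicate 2. All protein-coding genes had medians of 0.304 and 0.295, and those of at least 59.5 kb 0.201 and 0.193.

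Footprints followed another order. Per 10 kb, Cacna1s had 2.76 ± 0.162 and Cacna1h 2.26 ± 0.889 (SD, n = 2), the highest of the 9, although neither had over 4 stricter peaks. Cacna1g, with 3 and 2 stricter peaks, had 1.22 ± 0.0824. Cacna1h held 13 and 23 footprints in replicates 1 and 2, against 3 and 1 stricter peaks, and Cacna1s 25 and 23 against 4 and 1. Cacna1d was lowest with 0.721 ± 0.0600. Over all 9 windows 54.5% and 48.2% of footprints touched a stricter peak, against 67.9% and 64.5% of all footprints, and 91.4% and 87.1% touched a broader peak. Their median length was 9 bases in each library, and 39.7% and 34.9% were shared with the other library, against 46.0% and 43.6% over the genome.

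Starts were examined next. A promoter peak is a stricter peak that overlaps 1000 bp on either side of an annotated transcript start. Such a peak was found in replicate 1 and again in replicate 2 for 6 of the 9 genes: Cacna1a, Cacna1b, Cacna1c, Cacna1d, Cacna1g and Cacna1i. Among all protein-coding genes 54.9% did, and among those of at least 59.5 kb 76.2%, so 6 of 9 lies between these backgrounds. Counting starts of coding transcripts alone, the same 6 genes passed, beside 53.6% of all and 74.3% of long genes. For Cacna1e and Cacna1h it was seen in replicate 1 alone, and Cacna1s had none. With the broader lists all 9 had a promoter peak in both libraries, beside 60.8% of all genes and 83.8% of the long ones.

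Among the channels of transmitter release, Cacna1b (ENSMUSG00000004113.18, chr2:24603887-24763152, minus strand) had the strongest peak at a coding start, 2.71 in replicate 1 and 2.93 in replicate 2. That placed it above 50.6% and 66.5% of the genes with a peak at a coding start. The peak (chr2:24763121-24763400) lay across the gene's first base and held the GC boxes printed above. A weaker site of 1.08 and 1.22 lay in the first intron, 367 bp from the nearest coding start. The farther coding starts of Cacna1b, which give shorter transcripts, had no peak in replicate 1, and 1 of them had a peak of 0.685 in replicate 2.

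Cacna1a (ENSMUSG00000034656.17, chr8:84388440-84640246, plus strand) had peaks of 1.13 and 1.25 at its coding start, upstream of the first exon. These were above 12.8% and 17.7% of genes with such a peak, with a mean of 1.19 ± 0.0863 (SD, n = 2). The strongest peak near any annotated start of this gene was elsewhere, at 2.88 and 2.15. It covered coding sequence of the last exon, exon 47 (chr8:84639301-84639820), 310 bp from the start of a short noncoding transcript and 224 kb from the nearest coding start. It held 9 and 11 footprints.

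Cacna1e (ENSMUSG00000004110.16, chr1:154390731-154884501, minus strand) had a start peak of 1.03 in replicate 1. In replicate 2 the same place was in the broader list only, at 1.06, where its lowest FDR was 0.00224, above the 0.001 that every stricter peak reached. The strength was thus nearly equal in the libraries, and the list it entered was different.

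Of the L-type genes, Cacna1c (ENSMUSG00000051331.15, chr6:118587240-119196418, minus strand) had start peaks of 1.72 and 1.45, above 27.3% and 23.5% of genes with one. Its coding transcripts begin in 5 regions. The accessible region (starts between 119107975 and 119108573) serves 12 of its 22 coding transcripts and lies 87.8 kb inside the gene. The region at the gene's outer edge, with 4 coding transcripts, had no peak of either list and no interval with an FDR under 0.05 within 1 kb, in either library. A region 416 kb inside the gene, with 4 further transcripts, had a broader peak of 0.502 in replicate 1 alone.

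Cacna1d (ENSMUSG00000015968.17, chr14:30039939-30491455, minus strand) had the weakest start peak of the 6, 1.00 and 1.12, above 9.89% and 13.7% of genes with one. Its accessible start region, with 4 coding transcripts, lay 138 kb inside the gene, and the outer start, with 1 transcript, had no listed interval. Cacna1s (ENSMUSG00000026407.17, chr1:136052750-136119822, plus strand), the skeletal muscle gene, had no promoter peak of the stricter lists. A stricter peak of replicate 1 (chr1:136051588-136051716, strength 1.73) lay 1034 bp upstream of its nearest start, just beyond the limit, and 784 bp from the start of Ascl5, a neighbouring gene of the basic helix-loop-helix family. Replicate 2 had a broader peak of 1.09 there. Within 1 kb of the Cacna1s start only the edge of the broader peaks was reached, with no footprint and lowest FDRs of 0.0133 and 0.0436.

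Of the T-type genes, Cacna1g (ENSMUSG00000020866.17, chr11:94408391-94474198, minus strand) had start peaks of 2.13 and 1.63, the second strongest of the 9, above 37.4% and 28.9% of genes with one. All of its 11 coding transcripts begin in that region. Cacna1i (ENSMUSG00000022416.15, chr15:80287238-80398279, plus strand) had 1.15 and 1.14. Cacna1h (ENSMUSG00000024112.16, chr17:25374285-25433783, minus strand) had 1.18 in replicate 1 and a broader peak of 1.25 in replicate 2, whose lowest FDR was 0.00401. As in Cacna1e, the strengths were close and the libraries differed in the list that the peak entered. The cause was not tested.

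**Figure D2:**
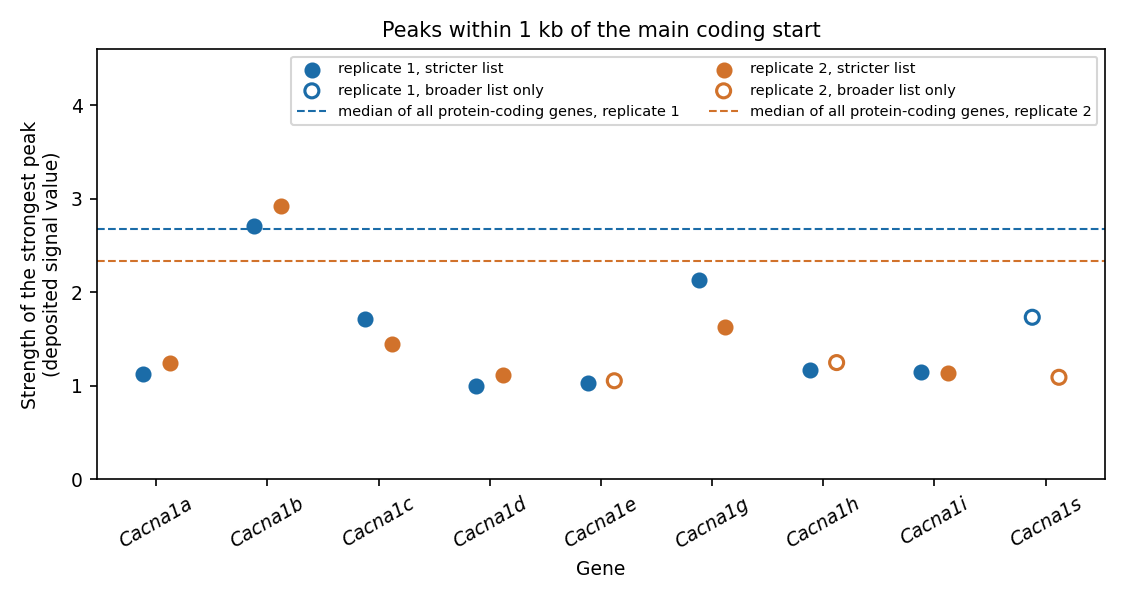
Points give the strength of the strongest peak within 1 kb of the main coding start (y axis) of each gene (x axis), filled for the stricter list and open for the broader list alone, and dashed lines give the median over all protein-coding genes with a stricter peak at a coding start. Only Cacna1b lay above the line of its library in both, and 6 genes had filled points in both libraries.

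Over the genes with a stricter peak at a coding start the median strength was 1.16 in replicate 1 (8 genes) and 1.35 in replicate 2 (6 genes). All protein-coding genes with such a peak had 2.68 and 2.33, and those of at least 59.5 kb 2.07 and 1.83. Cacna1e and Cacna1h entered only the first of these medians. Cacna1b and Cacna1g were the 2 highest in each library, and their ranges overlapped neither each other nor those of the other genes except that of Cacna1g with Cacna1c.

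Starts of coding transcripts within a gene fell into 23 regions. The 9 that hold the start of the longest coding transcript were in the broader list of both libraries in all 9 cases and in the stricter list of both in 6. Of the other 14 regions none had a peak of either list in both libraries, and 11 had no interval with an FDR under 0.05 in either library. Transcripts that begin close together share such a region, so this count is of places, not of transcripts.

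Most of the peaks were elsewhere. In replicates 1 and 2, 61.4% and 64.7% of the stricter peaks in the 9 windows (35 of 57 and 33 of 51) had their midpoint over 1000 bp from every annotated start of any gene, here called away from starts. Over all stricter peaks of the genome the shares were 49.6% and 46.1%, and in windows of genes of at least 59.5 kb they were 46.3% and 41.3%. All 9 genes had such a peak in both libraries, beside 31% of all protein-coding genes and 57.3% of the long ones. The 9 are longer than that class, with a median length of 159 kb against 112 kb, and lengths were not matched further.

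Peaks of the libraries that overlapped or lay within 200 bp were joined into 57 sites. Of these, 38 were in the stricter list of both libraries, 11 in the stricter list of 1 and the broader list of the other, and 8 in 1 library alone. By place on any coding transcript of the gene, 43 lay in introns, 5 in exons and 9 outside. Of the 43, 35 were away from starts. On the longest coding transcript alone, 34 lay in introns, 4 in exons, 17 upstream and 2 downstream. By distance, 39 were away from starts, 13 were near a coding start of the gene itself, 1 near a noncoding start of it and 4 near the start of another gene. Among the 38, the 27 away from starts had median strengths of 1.41 and 1.22, and the 8 at a coding start of the gene 1.14 and 1.24. A footprint was present in both libraries in 37 of the 38.

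**Figure D3:**
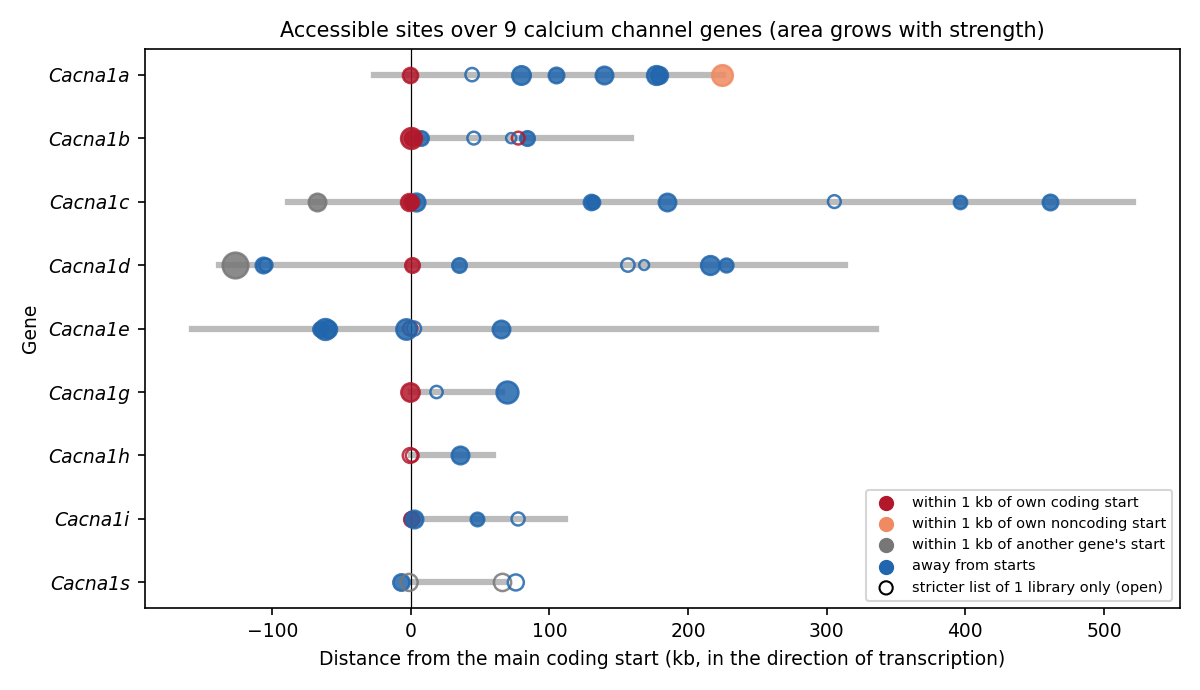
Each row is a gene and each circle a site, placed by distance from the main coding start (x axis, kb in the direction of transcription), filled where it was in the stricter list of both libraries and larger where its higher strength was larger. Grey bars mark the annotated gene. Blue sites away from starts are spread along the bodies of Cacna1a, Cacna1c and Cacna1d and lie upstream of the main start of Cacna1e.

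Cacna1a held 5 shared sites away from starts, all in introns. The strongest by its mean, in intron 30 (chr8:84592101-84592300), had a strength of 1.90 in replicate 1 and 2.27 in replicate 2, and that in intron 3 had 2.20 and 1.31. Intron 17 had 1.88 and 1.35. Each of these exceeded the peak at the coding start of Cacna1a in both libraries.

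In Cacna1b the shared sites away from starts were few. Coding sequence of exon 19 held a site of 1.08 and 1.13 (chr2:24678904-24679600), and intron 3 a site of 0.967 and 1.08. Both were weaker than the promoter peak of the gene, the reverse of the order in Cacna1a.

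Cacna1e had 5 shared sites away from starts, and 4 of them lay upstream of its main start but inside a longer coding transcript. The nearest, 3.31 kb upstream (chr1:154729661-154729880), had 2.77 in replicate 1 and 1.19 in replicate 2, or 1.98 ± 1.12 (SD, n = 2). At 59.9 kb upstream a site had 1.77 and 1.57, and at 61.8 kb another (chr1:154788201-154788360), printed above, had 1.71 and 2.93. Intron 3 held 1.88 and 1.05. So the sites were found in both libraries, but the strongest of them was not the same in each.

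Cacna1c held 6 shared sites away from starts, all in introns. The strongest in replicate 1, at 1.95, lay 3.42 kb downstream of the coding start in intron 1, and it had 1.06 in replicate 2. The strongest in replicate 2, at 1.86, lay in intron 3 (chr6:118922991-118923131) and had 1.55 in replicate 1. A pair of weaker sites lay within 1 kb of each other in the same long intron, with 0.796 and 0.805 in the first and 1.09 and 1.28 in the second.

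Cacna1d intron 9 (chr14:30137041-30137260) had 2.27 and 1.69, more than the gene's own start peak in either library. The 3 other shared sites away from starts had between 0.805 and 1.35. Within Cacna1s itself no site was shared: its single shared site lay 6.67 kb upstream of the gene and 4724 bp from the start of Ascl5, with 1.41 and 1.58.

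Cacna1g had the strongest shared site away from starts by its mean, 2.96 ± 0.461 (SD, n = 2), at 2.63 and 3.29. It lay beyond the 3′ end of the gene (chr11:94404781-94405000), 11784 bp from the nearest start of another gene, that of the transporter Abcc3. Cacna1h had 1 shared site in all, in intron 2 (chr17:25397921-25398120), at 1.91 and 1.88. Cacna1i intron 1 held 1.90 and 1.42 at 2.28 kb downstream of the start (chr15:80289521-80289880), and intron 4 held 0.862 and 0.667. The Cacna1h site had a mean of 1.89 ± 0.0181 (SD, n = 2).

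The strongest shared site in all 9 windows belonged to another gene. The start of Dcp1a, which encodes an activator of mRNA decapping, lies inside the annotated span of Cacna1d, and the peak there (chr14:30479401-30479760) had 4.79 and 3.56. That is above 96.2% and 93.2% of all stricter peaks in its library. Dcp1b, a paralogue of Dcp1a, starts inside the span of Cacna1c, and its site (chr6:119175021-119175780) had 1.89 and 1.18. Each lies between an outer start of the channel gene that had no peak and the accessible inner start, and neither was counted as a promoter of the channel gene.

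Of the 8 sites found in the stricter list of 1 library with no broader peak in the other, 4 were in replicate 1: Cacna1c intron 3 (0.701), a site upstream of the main start of Cacna1d (0.787), Cacna1g intron 9 (0.597) and the last exon of Cacna1s (1.80, chr1:136118955-136119090). The 4 in replicate 2 were Cacna1b introns 18 (0.685) and 16 (0.194), Cacna1d intron 4 (0.148) and Cacna1i intron 1 (1.02). All but those of Cacna1s and Cacna1i were below 0.8, and the genome medians were 1.22 and 1.15. The Cacna1s site lay 732 bp from the start of Gm37759, annotated as antisense, and was counted as near the start of another gene. Over the 9 windows, 41 of 57 stricter peaks of replicate 1 (71.9%) overlapped one of replicate 2 by at least 1 bp, and 41 of 51 (80.4%) did so in the other direction. Over the genome 76.5% and 78.4% did. With the broader list of the other library the shares for the 9 genes were 93.0% and 90.2%.

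**Figure D4:**
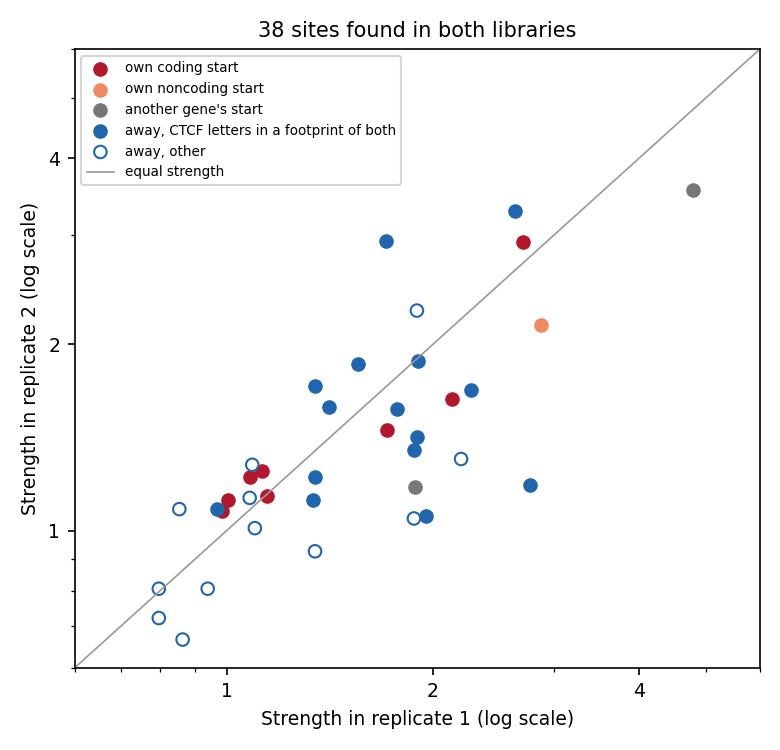
Each point is 1 of the 38 sites in the stricter list of both libraries, with its strength in replicate 1 (x axis) and replicate 2 (y axis) on log scales and a line of equal strength. The start of Dcp1a is at the upper right, and the filled blue points, with CTCF letters in a footprint, mostly lie above 1 in both libraries while the open blue points reach lower.

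Short consensus sequences were sought on both strands in 300 bp around the centre of each shared site. Equal windows were taken around all stricter peaks of each library near a start of any gene, or away from starts. These include peaks found in 1 library only, so the background is wider than the shared sites it stands beside. Shares over shared peaks alone were computed only for CTCF. The GC box GGGCGG occurred at 5 of the 8 sites at a coding start (62.5%), near its share of all peaks near starts (58.4% and 56.5%). CCAAT occurred at 3 of 8 (37.5%, against 32.2% and 31.3%), and CAGATG (an E-box, 12.5% against 12.5% and 12.6%), GCGTGGG (EGR, 12.5% against 9.52% and 9.37%) and CAGCACC (part of the REST site, 12.5% against 9.67% and 9.46%) at 1 each. TATAAA (3.94% and 4.03% of all), TGACGTC (CRE, 4.80% and 4.34%), TGANTCA (AP-1, 4.44% and 4.56%), GCGCATG (NRF1, 5.91% and 5.54%), GTTGCCA (RFX, 4.10% and 3.97%) and the NFI consensus (0.0390% and 0.0610%) were not in these 8 windows. The CTCF and MEF2 consensus letters, which stand in 2.32% and 2.09%, and in 1.11% and 0.962% of all, were not in them either.

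Among the 27 shared sites away from starts, GTTGCCA was in 5 (18.5%), in Cacna1a intron 3, Cacna1c intron 3, upstream of the main start of Cacna1d and at 2 sites of Cacna1e. Of all stricter peaks away from starts 6.0% and 5.66% held it. TGANTCA was in 4 (14.8%, against 12.7% and 11.8%), CCAAT in 10 (37.0%, against 30.4% and 30.5%), and CAGATG in 6 (22.2%, against 28.7% and 27.4%). The GC box was in 2 (7.41%, against 13.7% and 14.2%), CAGCACC in 2 (7.41%, against 8.94% and 9.37%) and MEF2 letters in 2 (7.41%, against 3.26% and 3.06%). TATAAA was in 1 (3.70%, against 10.6% and 9.99%), TGACGTC in 1 (3.70%, against 1.43% and 1.51%) and GCGTGGG in 1 (3.70%, against 4.58% and 4.56%). GCGCATG (2.44% and 2.53% of all) and NFI letters (0.0793% and 0.0879%) were not found. The letters are a description of these windows, and a match is not a binding measurement.

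The CTCF consensus was in 5 of the 27 with no letter different (18.5%, against 15.7% and 15.1%). With at most 1 letter different it was in 15 of 27 (55.6%), and in each of these 15 it overlapped a footprint in both libraries. All 9 genes had such a site, but the share of all genes or of long genes with one was not computed. That count therefore has no background beside it. Of all stricter peaks away from starts 33.6% and 31.2% held the letters in a footprint of their library, and of those shared between the libraries, the closer comparison, 40.9% and 38.6% did. The 15 sites had median strengths of 1.77 and 1.57, and the 12 others 1.09 and 1.03. CTCF and MEF2 were added to the search after the data were seen, and no test was made.

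The auxiliary subunit genes were set beside the alpha-1 genes. Of 16 auxiliary subunit genes 8 had a promoter peak in each library, 3 in 1 library and 5 in neither, beside 54.9% of all genes with one in both. Among the beta subunits, which bind the pore from the cytoplasm, 3 of 4 had one in both: Cacnb2, Cacnb3 and Cacnb4. Among the alpha2delta subunits, which lie outside the membrane and bind gabapentin in some forms, Cacna2d1 and Cacna2d2 did, Cacna2d3 did in replicate 2 only, and Cacna2d4 did not. Of the 8 gamma genes, Cacng2, Cacng3 and Cacng7 did and Cacng8 did in replicate 1 only, whereas Cacng1, Cacng4, Cacng5 and Cacng6 did not. Cacng2 and Cacng3 encode proteins better known as partners of AMPA receptors, and Cacng1 encodes the subunit of the skeletal muscle channel.

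Peaks at coding starts of the auxiliary genes had median strengths of 1.33 and 1.36, beside 1.16 and 1.35 for the alpha-1 genes. The highest was Cacng2 at 2.46 and 2.19. Median peak density was 0.222 and 0.261 per 10 kb. The densest was Cacnb1, with 1.93 in replicate 1 and 0.722 in replicate 2, or 8 and 3 peaks. Its promoter peak of 1.74 in replicate 1 had no counterpart in replicate 2, and its window held 2777 listed FDR intervals in replicate 1 and 810 in replicate 2. Cacng7 had 0.543 and Cacna2d2 0.468 in each library. Cacng1, Cacng4 and Cacng6 had no stricter peak in either.

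The alpha genes of voltage-gated sodium channels, the closest family in structure, had 19 and 20 stricter peaks over 9 windows, against 57 and 51. Of the 9 genes, 4 showed a promoter peak in each library, beside 54.9% of all protein-coding genes: Scn1a, Scn2a, Scn8a and Scn9a. Scn3a had one in replicate 1 only, and Scn4a of skeletal muscle and Scn10a and Scn11a of sensory neurons had none. Their median density was 0.120 per 10 kb in each library, against 0.294 and 0.191 for the alpha-1 genes. Scn8a (5 and 7 peaks) and Scn1a (5 and 6) were densest, and Scn11a had none. The sodium channel genes were shorter, with a median length of 111 kb against 159 kb, so raw counts cover unlike lengths. Their lengths ran from 34.7 to 176 kb, against 59.5 to 609 kb for the alpha-1 genes. The medians therefore understate the gap in total length behind the raw counts. There were 9 peaks away from starts in the sodium channel windows in each library, against 35 and 33. These differences have no test, since the lists were chosen and the libraries form 1 group. Cacna1f, the alpha-1 gene of retinal photoreceptors, was not among the 9. It had 3 and 2 stricter peaks in its window and no promoter peak in either library.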

How the data were processed

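DNase-seq files of 2 libraries of left cerebral cortex were analysed as deposited, on the mm10 assembly per the labels. The authors called peaks per library, per the notes deposited with the files. The deposited peak signal (strength, column 7) has no stated scaling. The authors' FDR table (a kind of q-value) lists only values under 0.05. All stricter peaks held an interval at 0.001 or less, and all broader peaks one at 0.05 or less. In replicates 1 and 2, 31606 and 34236 broader peaks overlapped no stricter peak. Of these, 28664 and 31042 held no interval at 0.001 or less. The rest did, so that value alone does not separate the lists. Deposited footprints carry a constant other value, so intervals alone were used. For the peak caller and the aligner, no name is given in the sources used here.

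The 9 genes, gene lists and rules were chosen with earlier results of these data known. Genes and starts came from GENCODE M21 and sequence from GRCm38.p6, with coordinates counted from 1. Peaks and footprints were placed in windows by their midpoints, so neighbouring genes whose windows overlap can count 1 peak each. Promoter peaks needed 1 bp of overlap with 1000 bp on either side of a start. Named were all 9 genes, and of the other lists the 3 densest, the least dense and those without a promoter peak. In the sodium channel list 1 gene is not reported here by itself. Of peaks, the rule took each gene's strongest at a start and away from starts, and those with no counterpart. Main start and intron numbers refer to the longest coding transcript. There is 1 group, so no p-value was computed. Counting code was tested on simulated data. Python 3.11.15, pandas 2.3.3, numpy 2.4.6, pyfaidx 0.9.0.4 and matplotlib 3.10.9 were used.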

Additional observations from a re-analysis of the deposited data

How the results depend on the processing

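Of 46 alternatives to the summary values, 35 stayed within the spread between libraries or within 1.5 times a count. With the broader lists, peaks over the 9 windows numbered 119.5 in place of 54, median density was 0.500 in place of 0.243, the share away from starts 73.7% in place of 63.1%, and the share found in both libraries 65.3% in place of 76.2%. With the strongest 50% of stricter peaks these were 25.5 peaks, a density of 0.103 and, as the query, 94.6% shared, and 4 in place of 8 auxiliary genes had a promoter peak in both. A start distance of 500 bp left 79.8% of peaks away from starts, a reciprocal overlap of at least 50% left 53.9% shared, and 137 in place of 267.5 footprints overlapped stricter peaks. The cause was not tested. With either library left out, values ranged from 51 to 57 peaks, 257 to 278 footprints, 0.191 to 0.294 in density, 61.4% to 64.7% away from starts, 71.9% to 80.4% shared, 6 to 8 of the 9 genes and 9 to 10 auxiliary genes with a promoter peak. Of 27 alternatives to the peak counts of single genes, 17 stayed close, and Cacna1g and Cacna1s fell to 0.5 peaks each in the gene body alone, without the 10 kb on each side. No paired analysis was possible because there is 1 group and no comparison between groups. With 2 libraries the SDs are rough. A peak missing from the stricter list can be in the broader one at similar strength, as at the Cacna1e and Cacna1h starts.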
